A study of Rattus norvegicus with 12 samples.

Results

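The Hox genes listed for the rat colon and hippocampus are described here. They were taken by name, as every gene whose symbol starts with Hoxa, Hoxb, Hoxc or Hoxd followed by a digit, so no measured value chose them. The rule took 37 entries of the 15939 distinct gene identifiers in the deposited tables. All 37 were among the 14803 entries of the colon table, and 0 were among the 14266 of the hippocampus table. The 37 entries carried 29 symbols, of which 28 name protein-coding Hox genes and 1, Hoxa11-as, names an RNA transcribed opposite to Hoxa11.

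The rats had either hypoxic-ischemic damage to the brain (HI) or a sham procedure, and the RNA of their colon and hippocampus was sequenced. Each tissue had 3 libraries per group, and no strain, age or sex is given in the labels used here beyond the word neonatal in the title. Levels were given as FPKM, fragments per kilobase of transcript divided by the mapped fragments of the library, which can be compared between genes. Nothing in the labels ties a library to an animal of its own, so a p-value reflects how far libraries spread, and that spread may be technical.

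The depth of the libraries is unknown, and the FPKM values of a colon library added up to between 495505 and 509775. Of the 3 sham columns for the colon, 2 have the same name, and here they have the names sham 3a and sham 3b. Values per library follow the order sham 1, sham 3a, sham 3b and HI 1, HI 2, HI 3. Sham 1 had 0.202 FPKM of the Y-linked gene Eif2s3y and 0 of Kdm5d, where no other colon library was below 10.6 FPKM in either. The 9 colon epithelium markers summed to between 4095 and 5396 FPKM in a colon library and to between 3.41 and 10.5 FPKM in a hippocampus library, where Cdx2, Cdh1, Vil1, Car1 and Slc26a3 were not listed. The 6 markers of hippocampal neurons summed to between 1515 and 1667 FPKM in the hippocampus. The 3 choroid plexus markers summed to 4233 FPKM in hippocampus HI 1 and to no more than a small part of that in the other hippocampus libraries, such as 0.419 FPKM in sham 1 and 13.1 FPKM in HI 2.

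Hox genes encode homeodomain transcription factors that stand side by side in the clusters HoxA, HoxB, HoxC and HoxD. Genes at matching places of the clusters form a paralog group, and the groups are numbered from the head end to the tail end of the body, in the order in which they are switched on and expressed along it. In the gut, differences in Hox expression between places along the tube persist after birth, with group 13 at the hind end. The forebrain, which gives rise to the hippocampus, forms ahead of the region that expresses Hox genes.

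The regulatory sequence of a few members is shown because some Hox genes, also within a cluster, differed in opposite ways between the colon libraries. RefSeq's table for the rat assembly GRCr8 gave the stretch around the start of 18 of the 29 symbols, 10 of HoxA, 7 of HoxD, 1 of HoxC and 0 of HoxB. Hoxd13 and Hoxd10 are near neighbours on chromosome 3, and their levels ran in nearly opposite orders over the libraries. Hoxa9 and Hoxa11-as were lowest in the libraries where Hoxd10 was highest, and Hoxa11-as starts 227 bases from Hoxa11 in GRCr8, on the other strand. Capitals mark matches on either strand to TTTATNG, a core like that bound by Cdx homeodomain proteins, to TGATNNAT, which pairs of Pbx and Hox proteins bind, or to the TATA box TATAAA.
Hoxd13, 250 bases before the start, + strand, chr3:79977827-79978076: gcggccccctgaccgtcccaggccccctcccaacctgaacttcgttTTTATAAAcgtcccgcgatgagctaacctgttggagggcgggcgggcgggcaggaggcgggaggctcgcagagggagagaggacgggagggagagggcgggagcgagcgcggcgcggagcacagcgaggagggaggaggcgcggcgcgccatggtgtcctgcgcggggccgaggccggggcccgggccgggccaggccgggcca
Hoxd10, 250 bases before the start, + strand, chr3:80001697-80001946: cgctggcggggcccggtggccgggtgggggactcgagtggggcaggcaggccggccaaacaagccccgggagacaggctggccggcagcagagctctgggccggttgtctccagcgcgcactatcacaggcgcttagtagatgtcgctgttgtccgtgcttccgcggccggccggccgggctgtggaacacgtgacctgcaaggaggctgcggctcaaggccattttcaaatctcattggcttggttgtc
Hoxa9, 250 bases before the start, - strand, chr4:82657049-82657298: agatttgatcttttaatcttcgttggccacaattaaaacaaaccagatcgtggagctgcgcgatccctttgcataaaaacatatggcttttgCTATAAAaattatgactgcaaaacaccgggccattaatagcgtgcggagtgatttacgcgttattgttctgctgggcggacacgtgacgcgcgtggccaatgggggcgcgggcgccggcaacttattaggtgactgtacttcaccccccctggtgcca
Between the starts of Hoxa11 and Hoxa11-as, 226 bases, + strand, chr4:82676802-82677027: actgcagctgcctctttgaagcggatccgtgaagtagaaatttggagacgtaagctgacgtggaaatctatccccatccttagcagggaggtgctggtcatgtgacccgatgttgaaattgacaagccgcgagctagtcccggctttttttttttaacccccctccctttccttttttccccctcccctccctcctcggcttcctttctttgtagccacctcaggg

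The Hoxd13 stretch held 2 overlapping matches to the TATA box, 1 on each strand, and no match to the other motifs. In the Hoxa9 stretch 1 match to TTTATNG overlapped 1 match to TATAAA, so these letters count for both motifs. No match to any of the 3 motifs lay in the Hoxd10 stretch or between the starts of Hoxa11 and Hoxa11-as. Over whole windows, from 250 bases before to 50 bases after a start, TTTATNG was found in 2 of the 19 HoxA, HoxC and HoxD windows (10.5%) and in 11.3% of all 33469 windows. For TGATNNAT it was found in 3 of the 19 (15.8%) and in 9.10% of all windows, and for TATAAA in 4 of the 19 (21.1%) and in 14.2%. Both windows of Hoxa10 are among those with TATAAA, so these shares rest on few genes. These HoxA, HoxC and HoxD windows were richer in the dinucleotide CG, with a median of 22 per window and a range from 6 to 49, beside a median of 7 over all windows.

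Of the 39 coding Hox symbols in the RefSeq table, 28 were listed in the colon. They comprised 10 HoxA, 9 HoxB, 7 HoxD and 2 HoxC genes. Among those not listed were Hoxb1, Hoxd1, Hoxd12 and 7 of the 9 HoxC genes, Hoxc5 and Hoxc8 to Hoxc13. The higher of the group means was at least 0.5 FPKM for every listed colon gene, so a gene that is not listed may have stood below that level. In the hippocampus 0 of the 39 were listed, and no entry of any name lay within the spans that the clusters take up in the colon table. The higher of the group means was at least 0.5 FPKM for all but 1 of the listed hippocampus genes too, so Hox levels there cannot be given.

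The colon libraries differed widely from each other in many Hox genes. On the log2(FPKM + 1) scale the range over the 6 libraries was at least 1 for 23 of the 37 entries and at least 2 for 13, beside 8.74% and 1.61% of all listed colon entries. The 13 include 5 HoxA entries, 3 of Hoxa11-as and 2 of Hoxa13, so copies of a symbol count more than once. The median range was 2.26 for the 7 HoxD entries, 1.90 for the 9 HoxB entries and 0.65 for the 19 HoxA entries, beside 0.42 over all entries. Fewer cells that express a gene and less of its RNA per cell cannot be told apart in such bulk samples.

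**Figure D1:**
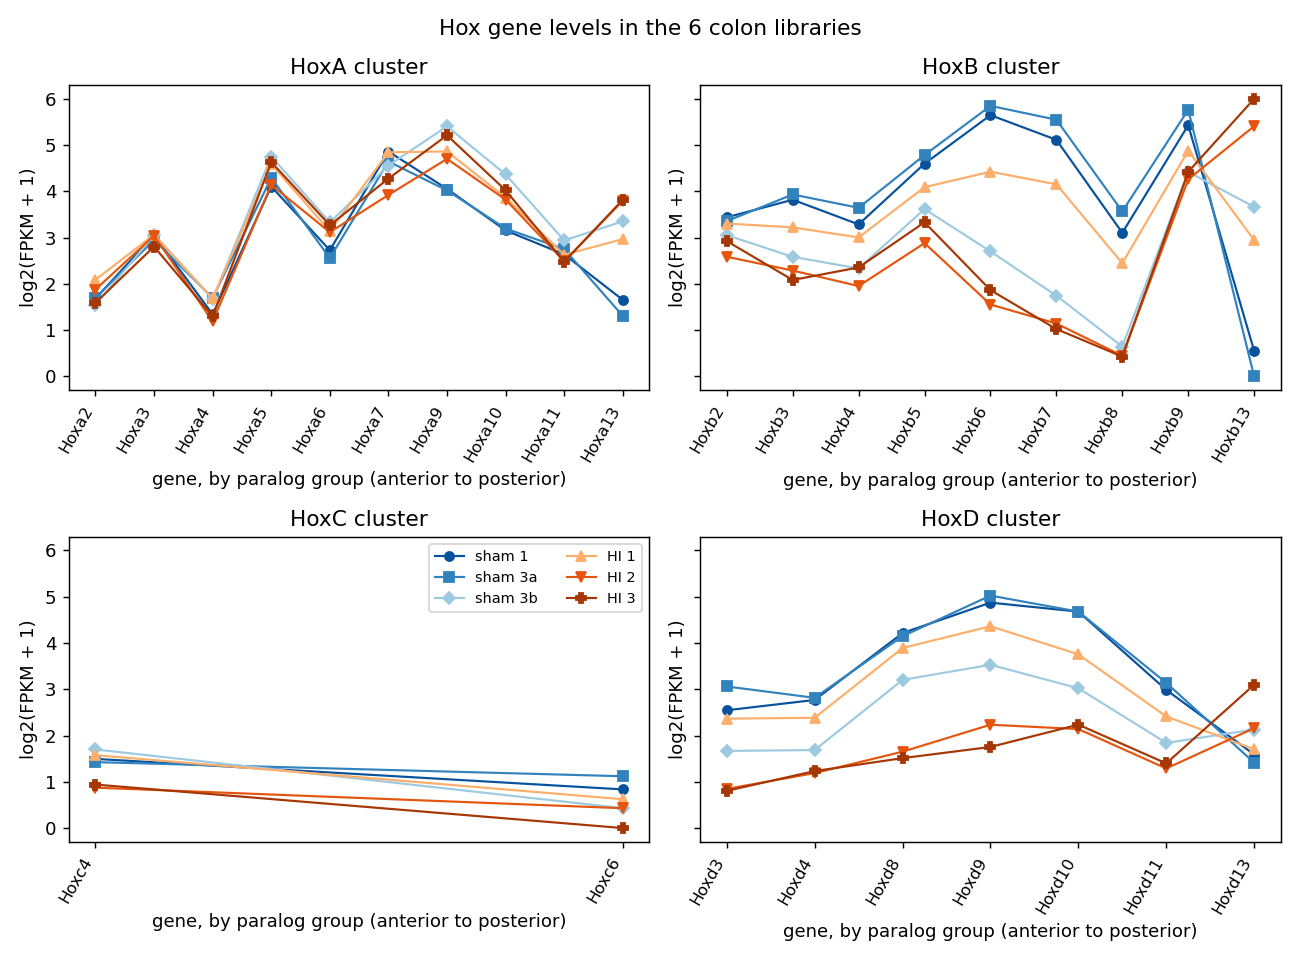
Level of each listed coding Hox gene as log2(FPKM + 1) (vertical axis) by gene in the order of paralog groups (horizontal axis), in a panel for each cluster, with 1 line for each of the 6 colon libraries and, for HoxA symbols with several entries, the entry with the highest mean. The lines of sham 1 and sham 3a lie on top for Hoxb2 to Hoxb9 and for Hoxd3 to Hoxd11 and at the bottom for Hoxa13, Hoxb13 and Hoxd13, whereas the HoxA lines lie closer together.

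HoxB spans 84031955 to 84202688 on the + strand of chromosome 10 in the coordinates of the deposited table, for which no source used here names a genome build. Hoxb13, the hind-most gene of the cluster and in mouse and human a gene of the distal colon and rectum, lies 85655 bases from its nearest listed neighbour Hoxb9. The other neighbours of HoxB are between 1869 and 12970 bases apart. Its level was 0.466, 0 and 11.7 FPKM in the sham libraries and 6.70, 41.4 and 63.0 FPKM in the HI libraries. The highest sham library was therefore above the lowest HI library, and the groups overlapped.

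Hoxb6, a mid-trunk gene, ran the other way, with 49.1, 56.5 and 5.50 FPKM in the sham libraries and 20.5, 1.93 and 2.64 FPKM in the HI libraries. Its neighbour Hoxb7 had the widest relative range of the genes with no library at 0, from 1.03 FPKM in HI 3 to 45.8 FPKM in sham 3a, a ratio of 44.3. Hoxb8 ranged from 0.345 FPKM in HI 3 to 10.8 FPKM in sham 3a, a ratio of 31.4. Toward both ends of the run from Hoxb2 to Hoxb9 the libraries were closer together. Hoxb9, the gene with the highest mean FPKM of the cluster, stood at 42.1, 53.3 and 20.4 FPKM in the sham libraries and at 28.4, 18.1 and 20.4 FPKM in the HI libraries. The ratio of its highest to its lowest library was 2.94, and that of Hoxb2 was 1.97. Between them, Hoxb3, Hoxb4 and Hoxb5 had ratios of at most 4.40.

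All 8 genes from Hoxb2 to Hoxb9 were higher in sham 1 and in sham 3a than in each of the other 4 libraries, and in all 8 the next library was HI 1. This order was described after the values were seen. The gene that led the cluster was Hoxb6 in sham 1 and sham 3a, Hoxb9 in sham 3b and HI 1, and Hoxb13 in HI 2 and HI 3. Hoxb13 made up 0.249%, 0% and 17.2% of the summed HoxB FPKM in the sham libraries and 5.73%, 51.0% and 57.0% in the HI libraries. The sum itself was lowest in sham 3b, at 68.1 FPKM, and highest in sham 3a, at 228 FPKM.

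**Figure D2:**
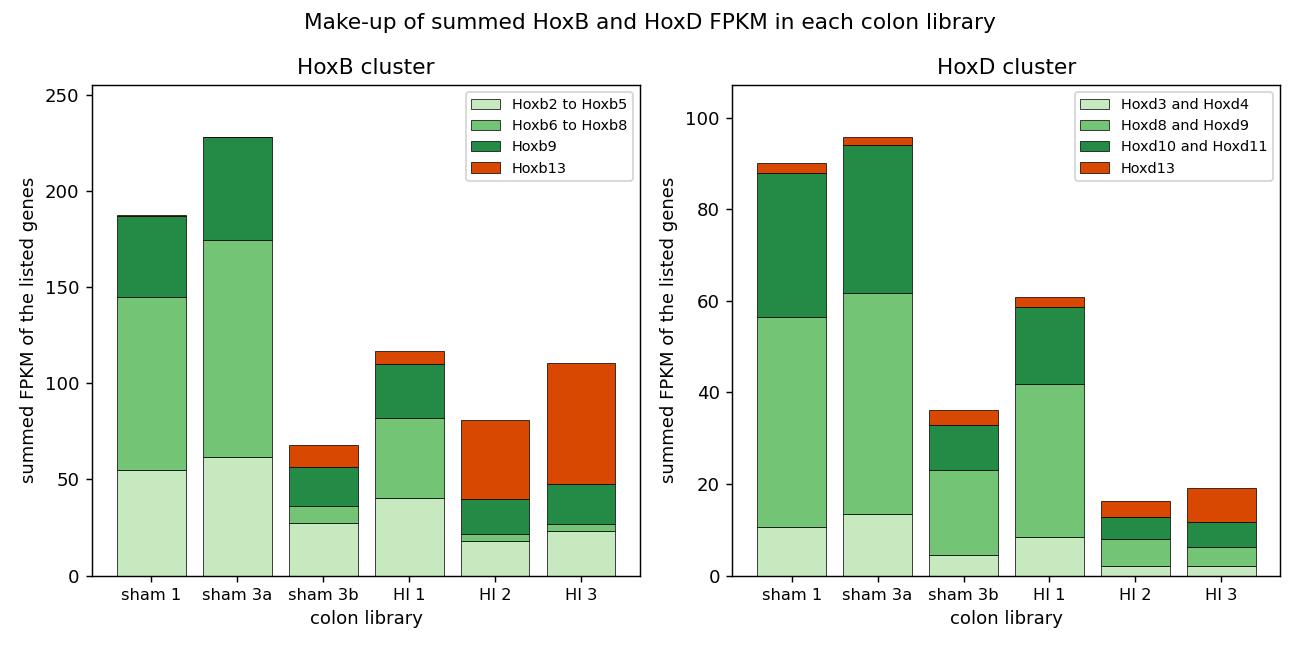
Summed FPKM (vertical axis) of the listed HoxB genes (left) and HoxD genes (right) in each of the 6 colon libraries (horizontal axis), split by colour into parts of the cluster. Hoxb13 makes up 51.0% and 57.0% of the HoxB sum in HI 2 and HI 3, and the HoxD sum is lowest in HI 2.

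HoxD spans 61590376 to 61670282 on the + strand of chromosome 3 in the same coordinates. Its 6 genes from Hoxd3 to Hoxd11 ordered the libraries like the trunk genes of HoxB, with sham 1 and sham 3a above the other 4 libraries and HI 1 next in each of the 6. Hoxd9 had the highest mean of the cluster, with 28.3, 31.5 and 10.6 FPKM in the sham libraries and 19.6, 3.70 and 2.37 FPKM in the HI libraries. Hoxd10, of a group that is expressed further back, did the same. Its level was 24.6, 24.6 and 7.12 FPKM in the sham libraries and 12.5, 3.41 and 3.71 FPKM in the HI libraries. Hoxd11 stood between 1.44 FPKM in HI 2 and 7.81 FPKM in sham 3a, and Hoxd8 between 1.85 FPKM in HI 3 and 17.6 FPKM in sham 1.

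Hoxd13, at the other end of the cluster and 10979 bases from Hoxd11, went against its neighbours. It stood at 2.01, 1.66 and 3.38 FPKM in the sham libraries and at 2.26, 3.47 and 7.56 FPKM in the HI libraries. It made up between 1.74% of the summed HoxD FPKM, in sham 3a, and 39.3%, in HI 3. The sum over HoxD ran from 16.2 FPKM in HI 2 to 95.7 FPKM in sham 3a. The border between genes that were high and genes that were low in sham 1 and sham 3a therefore lay between Hoxb9 and Hoxb13 in HoxB, and between Hoxd11 and Hoxd13 in HoxD.

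The 3 listed group 13 genes Hoxa13, Hoxb13 and Hoxd13 put the 6 libraries in the same order, from sham 3a over sham 1, HI 1, sham 3b and HI 2 to HI 3. The exact reverse of that order was seen in 6 genes, Hoxb3, Hoxb7, Hoxb8, Hoxc6, Hoxd3 and Hoxd9. Another 5, Hoxb5, Hoxb6, Hoxd4, Hoxd10 and Hoxd11, differed from the reverse only in that HI 2 stood below HI 3. The steps between neighbours in this order were not equal. For Hoxb13 sham 1 and sham 3a were close, at 0.466 FPKM and 0, whereas sham 3b and HI 2 were at 11.7 and 41.4 FPKM. For Hoxa13 HI 2 and HI 3 were almost level, at 12.9 and 13.1 FPKM. Some of the reversed orders also rest on near ties at low levels. Hoxc6 stood at 0.3474 FPKM in sham 3b and 0.3465 FPKM in HI 2. In HI 2 and HI 3 Hoxb8 stood at 0.361 and 0.345 FPKM, and Hoxd3 at 0.798 and 0.747 FPKM. These are single libraries, so neighbours in the order cannot be tested.

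HoxA behaved unlike HoxB and HoxD. None of its 10 coding genes was higher in sham 1 and sham 3a than in each of the other 4 libraries. Lower there were 4 of them, Hoxa6, Hoxa9, Hoxa10 and Hoxa13, the last like its paralogs Hoxb13 and Hoxd13. Hoxa9 had the highest mean of the coding genes of the cluster and stood at 15.6, 15.2 and 41.4 FPKM in the sham libraries and at 28.1, 25.0 and 36.0 FPKM in the HI libraries. Hoxb9 and Hoxd9, its paralogs, were highest in the libraries where Hoxa9 was lowest, so the members of paralog group 9 did not share 1 order. Hoxa10 followed Hoxa9, from 7.90 FPKM in sham 1 to 19.6 FPKM in sham 3b, while Hoxd10 was highest in sham 1 and sham 3a. The coding gene that led HoxA was Hoxa7 in sham 1 and sham 3a and Hoxa9 in the other 4 libraries.

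The head-end genes of HoxA had smaller ratios of the highest to the lowest library than most genes of HoxB and HoxD. The ratio was 1.70 for Hoxa2 and 1.75 for Hoxa4, and both stood at no more than 3.25 FPKM. Hoxa3 ranged from 5.99 to 7.37 FPKM, a ratio of 1.23, where Hoxb3 and Hoxd3 had ratios of 4.40 and 9.83. Hoxa5, a gene of lung and gut mesenchyme, stood between 16.2 and 25.9 FPKM in its entry with the highest mean, and Hoxa7 between 14.2 and 28.0 FPKM. Hoxa13, required for the hindgut end and the distal limb in mouse, stood at 2.15, 1.47 and 9.21 FPKM in the sham libraries and at 6.82, 12.9 and 13.1 FPKM in the HI libraries.

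HoxA values are uncertain because the deposited table places this cluster more than once. Its 19 entries lie in 2 runs on chromosome 4, from 82138683 to 82229397 and from 82256996 to 82304541, and on a scaffold outside the chromosomes. Hoxa5, Hoxa11 and Hoxa11-as have 3 entries each, and Hoxa4 and Hoxa13 have 2. Several entries match in length to the base, such as Hoxa5 with 1770 bases and Hoxa11 with 2352 bases in the second run and on the scaffold. Entries with provisional names lie in the same runs. LOC103692128 and LOC103689925 have the length of the Hoxa9 entry, 1965 bases, and stood at up to 34.8 FPKM and up to 25.3 FPKM, highest in sham 3b like Hoxa9. No source used here says how the authors' counting shared reads among such copies.

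Copies of a symbol were alike in level in some cases and not in others. The ratio of the first to the second run lay between 0.964 and 1.07 for Hoxa5, and that of the first run to the scaffold between 1.00 and 1.15 for Hoxa4. These copies differed little in level. The ratio of the second run to the scaffold lay between 1.54 and 1.62 over the 6 libraries for Hoxa5 and between 1.53 and 1.68 for Hoxa11. For Hoxa13 the ratio of the first run to the scaffold lay between 1.73 and 1.99, and for Hoxa11 between 1.72 and 2.20. Copies of Hoxa11-as differed most. Its entry in the first run was listed at 0 in 5 libraries and at 28.5 FPKM in HI 2. Its entries in the second run and on the scaffold stood in HI 2 at 36.0 and 26.7 FPKM, and neither was at 0 in any library.

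**Figure D3:**
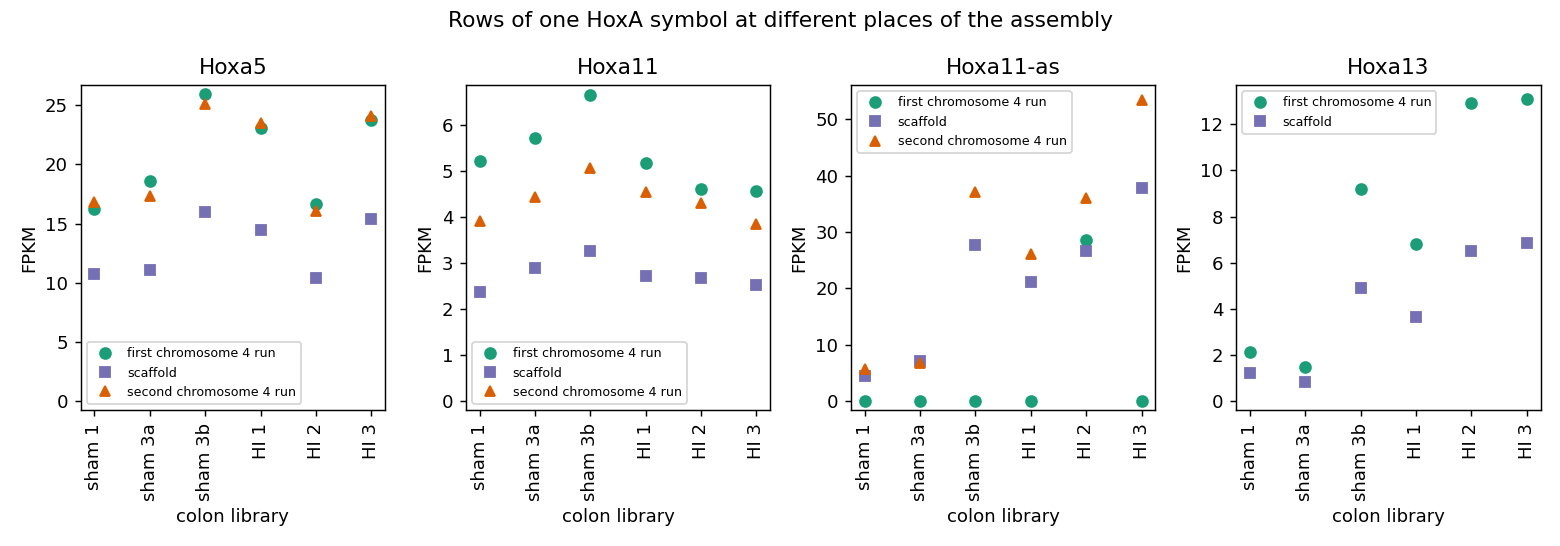
FPKM (vertical axis) in each of the 6 colon libraries (horizontal axis) for the entries of Hoxa5, Hoxa11, Hoxa11-as and Hoxa13 in the first and the second run on chromosome 4 and on the scaffold. The copies of Hoxa5 and of Hoxa13 order the libraries much alike, the copies of Hoxa11 less so, and the first-run entry of Hoxa11-as is at 0 in 5 libraries and at 28.5 FPKM in HI 2.

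Hoxa11-as, which the table lists as protein-coding and RefSeq as a long non-coding RNA, stood apart from Hoxa11, its divergent neighbour. In the second run it was at 5.80, 6.76 and 37.1 FPKM in the sham libraries and at 26.1, 36.0 and 53.4 FPKM in the HI libraries, a ratio of 9.22 between the highest and the lowest library. Hoxa11 in the same run stood between 3.85 and 5.06 FPKM in all 6 libraries, a ratio of 1.32. In the first run the entries of Hoxa11 and Hoxa11-as overlap by 681 bases on opposite strands, and no source used here says whether the authors counted by strand, so reads in that overlap may not be assignable to either. In the second run the entries do not overlap.

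HoxC had the lowest sum of the clusters in every library, between 0.919 and 2.86 FPKM. Hoxc4 stood at 1.82, 1.69 and 2.25 FPKM in the sham libraries and at 1.98, 0.832 and 0.919 FPKM in the HI libraries. Hoxc4 codes for a factor of the neck and upper trunk, and its levels in HI 2 and HI 3 lay below those of the other 4 libraries. Hoxc6 stood between 0.347 and 1.17 FPKM in the sham libraries and was listed at 0 in HI 3.

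Set against sham, HI gave no Hox call in the colon: 0 of the 35 Hox entries tested were called at an adjusted p under 0.05 in limma over all 13753 colon genes tested, where 0.0436% of all genes were called. An entry was tested if it reached 1 FPKM in at least 3 libraries, which left out Hoxc6 and the first-run entry of Hoxa11-as. An unadjusted p under 0.05 was reached by 8 of the 35 Hox entries, beside 11.1% of all genes tested. These were Hoxb13, Hoxd8, Hoxd9 and Hoxd10, 2 entries of Hoxa13 and 2 of Hoxa11-as, so the 8 stand for 6 symbols. That count depended on single libraries. It was 21 without sham 3b and 19 without HI 1, but 1 without sham 1 and 0 without sham 3a, HI 2 or HI 3. The count over all genes moved as well, from 1533 with every library to 2145 without sham 3b, 2221 without HI 1, 780 without sham 1, 678 without sham 3a, 1019 without HI 2 and 1296 without HI 3. Without sham 3b, both tested entries of Hoxa11-as passed over all genes, with differences of 2.38 (limma adjusted p = 0.0472) and 2.11 (limma adjusted p = 0.0484). These 2 entries are copies of 1 symbol. In that fit 38 colon genes were called, beside 6 with every library.

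Hoxb13 had the largest HI difference of the 35, with a sham mean of 4.05 FPKM ± 6.61 and an HI mean of 37.0 FPKM ± 28.4 (SD, n = 3 each), a difference of 3.38 ± 1.10 (SE) on the log2(FPKM + 1) scale (limma adjusted p = 0.396). Hoxb6 stood at a sham mean of 37.0 FPKM ± 27.6 and an HI mean of 8.35 FPKM ± 10.5 (SD, n = 3 each), a difference of -2.12 ± 1.02 (limma adjusted p = 0.479). The SD exceeded the mean in the sham group for Hoxb13 and in the HI group for Hoxb6. Hoxd9 differed by -1.69 ± 0.70, Hoxd10 by -1.42 ± 0.57 and Hoxd13 by 0.61 ± 0.36. The adjusted p-values of the 35 entries lay between 0.396 and 0.912.

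By cluster, the median difference was -1.09 over the 7 tested HoxD entries, -0.90 over the 9 of HoxB and 0.09 over the 18 of HoxA, beside -0.04 over all genes tested. Of the tested entries 13 were higher and 22 lower in HI, with copies of a HoxA symbol counted separately here and in the medians. HI and sham did not overlap in 1 of the 35 entries, the first-run entry of Hoxa11, which was at 5.22, 5.73 and 6.66 FPKM in sham and at 5.18, 4.60 and 4.57 FPKM in HI. Its difference was -0.24 ± 0.12 (limma adjusted p = 0.474). Every HI library was below every sham library in 10.3% of all genes tested and above it in 5.63%. The other Hoxa11 entries overlapped between the groups.

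**Figure D4:**
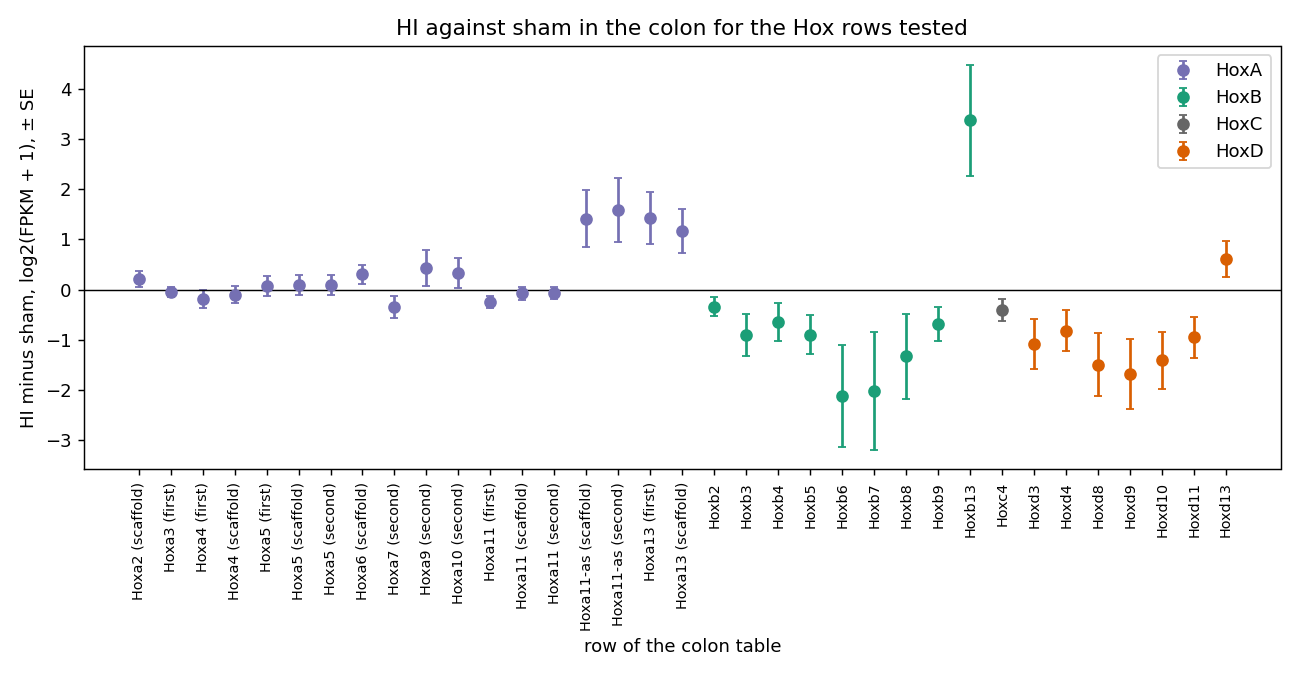
Difference between HI and sham in the colon on the log2(FPKM + 1) scale with its SE from limma (vertical axis, n = 3 libraries per group) for the 35 Hox entries tested (horizontal axis), coloured by cluster and ordered by paralog group. Hoxb13 stands highest at 3.38 and Hoxb6 lowest at -2.12, and 0 of the 35 had an adjusted p under 0.05.

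As a summary per library, the mean log2(FPKM + 1) of the 3 group 13 genes was set against that of the 21 genes of groups 2 to 9. The group 13 mean was 1.27, 0.91 and 3.05 in the sham libraries and 2.54, 3.79 and 4.30 in the HI libraries. The mean of the 21 genes was 3.48, 3.61 and 2.74 in the sham libraries and 3.29, 2.21 and 2.27 in the HI libraries. The highest and lowest library differed less in the mean of the 21 genes than in that of the 3. The difference of both means was -1.54 ± 1.61 in sham and 0.96 ± 1.49 in HI (SD, n = 3 each), and HI 1 at -0.75 lay below sham 3b at 0.30.

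Markers of the cells of the colon wall were set beside these values. The 6 smooth muscle markers summed to between 5389 FPKM, in sham 3a, and 7199 FPKM, in HI 3. The 5 listed fibroblast markers summed to between 1898 FPKM, in HI 1, and 2490 FPKM, in sham 3b, and the 7 enteric neuron markers to between 91.4 FPKM, in HI 2, and 144 FPKM, in sham 3a. The 4 leukocyte markers summed to between 280 FPKM, in sham 3b, and 490 FPKM, in HI 3. The sum of the 4 enteric glia markers lay between 21.2 FPKM, in HI 2, and 28.6 FPKM, in HI 1. That of the 2 listed endothelium markers lay between 18.9 FPKM, in HI 2, and 23.5 FPKM, in HI 3. The epithelium markers were highest in HI 2 and lowest in HI 3. The part of cell composition in the Hox values was not tested.

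Hox proteins bind DNA together with TALE homeodomain proteins of the Pbx, Meis and Pknox families, and the list also held Tgif1 and Tgif2, TALE repressors of the same class. In the colon all 11 genes of that list were tested and 0 were called, beside 0.0436% of all colon genes tested. Of the 11, 9 were lower in HI, with a median difference of -0.25 beside -0.04 over all genes tested. An unadjusted p under 0.05 was reached by 3 (27.3%), beside 11.1% of all genes tested. Meis1 stood at a sham mean of 16.4 FPKM ± 1.04 and an HI mean of 12.4 FPKM ± 1.92 (SD, n = 3 each), a difference of -0.38 ± 0.12 (limma adjusted p = 0.391), with sham libraries between 15.2 and 17.3 FPKM and HI libraries between 10.2 and 13.9 FPKM. Pbx2 and Meis2 differed by -0.24 ± 0.08 and by -0.43 ± 0.15. In the hippocampus, where no Hox gene was listed, 11 of the 11 were listed and 10 tested. Of all hippocampus genes tested 0.00759% were called and 6.62% had an unadjusted p under 0.05, and of these 10 the counts were 0 and 1. That 1 was Pbx4, at a sham mean of 4.22 FPKM ± 0.472 and an HI mean of 3.14 FPKM ± 0.536 (SD, n = 3 each; limma adjusted p = 0.729).

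Inputs to the trunk Hox code include the caudal genes Cdx1 and Cdx2 and the makers and breakers of retinoic acid. Of 20 listed by name, 15 were tested in the colon and 0 were called, beside 0.0436% of all colon genes tested. Of the 15, 13 were lower in HI, with a median difference of -0.16 beside -0.04 over all genes tested. An unadjusted p under 0.05 was reached by 4 (26.7%), beside 11.1% of all genes tested. Aldh1a2, which makes retinoic acid, stood at a sham mean of 23.6 FPKM ± 1.21 and an HI mean of 18.6 FPKM ± 0.992 (SD, n = 3 each), a difference of -0.33 ± 0.08 (limma adjusted p = 0.313). Crabp1, which binds retinoic acid, differed by -0.46 ± 0.15 and Cdx1 by -0.21 ± 0.09. In the hippocampus 14 were tested and 0 called, beside 0.00759% of all hippocampus genes tested. An unadjusted p under 0.05 was reached by 1 of the 14 (7.14%), beside 6.62% of all hippocampus genes tested. That 1 was Cyp26b1, which degrades retinoic acid, at a sham mean of 7.50 FPKM ± 0.506 and an HI mean of 9.13 FPKM ± 0.617 (SD, n = 3 each; limma adjusted p = 0.716).

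Polycomb and Trithorax proteins keep Hox genes off or on. A list of 23 chromatin regulators of Hox clusters held such genes and others, such as Ctcf and Kdm6b. All 23 were tested in the colon and 0 were called, beside 0.0436% of all colon genes tested. Of the 23, 15 were lower in HI, and their median difference of -0.05 was near the -0.04 over all genes tested. An unadjusted p under 0.05 was reached by 4 (17.4%), beside 11.1% of all genes tested. Ezh2, the methyltransferase of Polycomb complex PRC2, stood at 20.4, 21.4 and 20.5 FPKM in the sham libraries and at 16.3, 15.3 and 14.5 FPKM in the HI libraries. Every HI library lay below every sham library, as in 10.3% of all colon genes tested. Others of the list, such as Phc1 and Jarid2, lay wholly below too, and Ezh1 and Cbx7 lay wholly above. For Ezh2 sham 3b lay with the other sham libraries, and the difference was -0.41 ± 0.08 (limma adjusted p = 0.204). The paralog Ezh1 differed by 0.20 ± 0.09. In the hippocampus 23 were tested, 0 called and 0 at an unadjusted p under 0.05, beside 0.00759% and 6.62% of all hippocampus genes tested.

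Of 12 tested genes that lie beside the Hox clusters, 0 were called in the colon, beside 0.0436% of all genes tested. An unadjusted p under 0.05 was reached by 1 of the 12 (8.33%), beside 11.1% of all genes tested. That 1 was Hnrnpa1, with a difference of -0.36 ± 0.09 (limma adjusted p = 0.336). The median over the 12 was 0.01, beside -0.04 over all genes tested. Of 14 other transcription factors of gut regions and gut mesenchyme, 0 were called and 8 (57.1%) had an unadjusted p under 0.05. Their median difference was -0.22, with 8 lower and 6 higher in HI. Foxf1, of gut mesenchyme, stood at 61.3, 62.0 and 56.7 FPKM in the sham libraries and at 47.3, 44.9 and 46.6 FPKM in the HI libraries, a difference of -0.37 ± 0.07 (limma adjusted p = 0.204). Tbx2 and Nkx2-3, also of mesenchyme, differed by -0.37 ± 0.08 and -0.38 ± 0.09. In the hippocampus 10 and 5 genes of these lists were tested and 0 had an unadjusted p under 0.05, beside 6.62% of all hippocampus genes tested.

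Genes outside the clusters were ranked by how like their profile over the 6 colon libraries was to the Hox means. The measure was Pearson's r on the log2(FPKM + 1) scale. The 122 genes ranked had a mean of at least 5 FPKM, a log2 range of at least 2 and no provisional or clone-like name. Likeness over 6 libraries is a description and carries no test. Most like the group 13 mean were Stfa2 (r = 0.996), Sval1 (0.994), the clock gene Npas2 (0.991), Prss32 (0.987) and Pkp1 (0.986), which codes for a desmosome protein. Sval1 stood at 1.18, 0.541 and 20.8 FPKM in the sham libraries and at 11.2, 119 and 168 FPKM in the HI libraries, in the same order as Hoxb13. Most like the mean of groups 2 to 9 were Slc28a2, a nucleoside transporter gene (r = 0.998), Lgals2, which codes for a galectin (0.998), Mgst1 (0.997), Resp18 (0.996) and Cabp2 (0.995). Lgals2 stood at 92.4, 108 and 8.64 FPKM in the sham libraries and at 46.1, 1.68 and 1.64 FPKM in the HI libraries.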

How the data were processed

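For each tissue the authors deposited 1 table of FPKM per library, per the file headers, with gene symbols and coordinates. No source used here names the aligner, counter, genome build or annotation. Low FPKM values gave no steps worth 1 read, so depth is unknown and intervals for counting error cannot be given. A count model planned for tables of counts was therefore not used.

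Entries were tested with limma 3.58.1 (R 4.3.3; eBayes with a mean-variance trend) on log2(FPKM + 1) for genes reaching 1 FPKM in 3 or more libraries, HI against sham within a tissue, with Benjamini-Hochberg adjustment over all genes tested and a threshold of 0.05. Such fold changes understate low genes. The fit was tested on simulated data. Errors of log2 differences are SE. For a symbol at several places, profiles and sums use the entry with the highest mean.

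The alternatives were a pseudocount of 0.1, no filter, median-ratio scaling, no trend, each library left out and, added after the data were seen, copies of a Hox symbol summed. The replicate block was run for the hippocampus. The members, the lists and the rule for named genes (group 13 genes, cluster leaders, Hoxb6, up to 4 genes per list by smallest p, 5 like each profile) were chosen with earlier results of these data known. Other genes named were chosen after their values were seen. Some genes that the rule took are not reported here.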

Additional observations from a re-analysis of the deposited data

How the results depend on the processing

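With the pseudocount of 0.1, no filter, median-ratio scaling or no mean-variance trend, 0 Hox entries were called in the colon, and 0 of the 35 tested changed the sign of their difference. With the copies of a Hox symbol summed, an alternative added after the data were seen, 0 were called too, and the 5 symbols with copies kept the sign of their entry with the highest mean. With 1 library left out the count of Hox entries called was 0 to 2, and 29 of the 35 kept their sign in each such fit that tested them. Hoxb8 was below the filter without sham 1, sham 3a or HI 1. The others were Hoxa3 (-0.095 to 0.035), Hoxa5 in the first run (-0.068 to 0.26), on the scaffold (-0.013 to 0.26) and in the second run (-0.0018 to 0.28), and Hoxa11 on the scaffold (-0.17 to 0.0049) and in the second run (-0.14 to 0.016). The difference of HI and sham in the mean of group 13 less that of groups 2 to 9 was 2.49, between 1.91 and 3.41 with 1 library left out, and 3.35 with a pseudocount of 0.1. Over all genes, 6 were called in the colon and 3 without the trend, and 2 to 38 with 1 library left out. In the hippocampus 1 was called, 0 with a pseudocount of 0.1 or without the trend, and 0 to 5 with 1 library left out. With the replicate block it was 0, with 894 beside 872 genes at an unadjusted p under 0.05. Libraries of the same number had deviations correlated at -0.05, 0.08 and -0.03, so the numbers were not taken as pairs. No paired analysis was possible in the colon because 2 sham columns share a number.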
